A study of Drosophila melanogaster with 9 samples.

Results

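L(3)mbt, the chromatin protein encoded by lethal (3) malignant brain tumor, is purified with the dREAM complex and with the smaller LINT complex. The 10 genes described here encode L(3)mbt itself and subunits of these assemblies: l(3)mbt, Myb, mip120, mip130, mip40, Rbf, E2f2, Dp, Caf1-55 and CoRest. They were taken by name from the 18277 annotated genes. The rule was written with earlier results of these data known, and it already names the raised background around l(3)mbt in the knockout cells. A locus was taken as the annotated gene body with 2 kb either side. Accessibility had been profiled by ATAC-seq, which uses a transposase to tag open DNA, in 9 libraries of Drosophila melanogaster that fall into 4 groups. Ovarian somatic cells (OSCs), a cultured female line of follicle cell origin without germ cells, were wild type (n = 2) or knocked out for l(3)mbt (Δl(3)mbt OSCs, n = 2), and both lines came from a stock center, so that the knockout is a single established line. Intact ovaries, which hold germ cells and several somatic cell types, came from w1118 flies (n = 2, 6 ovaries each) and from a strain with EGFP inserted at vas (vas-GFP, n = 3, with 6, 10 and 30 ovaries), and each ovary library pools animals. Ages and the knockout allele were not given in the labels, and the study calls its replicates distinct samples without saying whether these were separate cultures, so that the p-values below measure the spread between these libraries, which may be technical.

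In flies, dREAM occupies promoters of cell cycle and developmental genes, many of which it keeps off, and Myb within it can also activate genes needed for mitosis. LINT joins L(3)mbt to the corepressor CoREST and represses lineage genes. In the ovary, loss of L(3)mbt is known for letting somatic cells express germline genes, and the loci below are those of the repressors themselves, not of the genes they bind.

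Each peak list gives a fold enrichment, the pileup of insertions at the summit over the local background with 1 added to each, and the −log10 of a q-value, a p-value corrected for the number of tests. The lists held 16588 to 59420 peaks, and a peak lay within 1 kb of a transcription start site (TSS) of 46.0% to 79.8% of all genes. The median fold enrichment over all peaks of a library was 2.32 and 3.68 in wild-type cells, 2.43 and 3.59 in knockout cells and 5.17 to 5.31 in ovaries, so raw values differ between OSCs and ovaries across the genome. Wild-type OSC 1 had the most peaks and the lowest median, followed in both by Δl(3)mbt OSC 1, with 36659 peaks. The commonest local background of a library, a measure of its relative depth, was 8.93 to 19.1 in OSCs and 3.09 to 6.68 in ovaries. Promoter peaks were found at 5 to 6 of the 6 ovarian soma markers in every library, at 4 to 6 of the 7 germline markers matched, at 1 to 4 of the 4 muscle markers, and at 3 (wild-type OSC 1), 1 (Δl(3)mbt OSC 1) or 0 (the other libraries) of the 3 gut or fat body markers. In ovaries, fewer cells with an open site and less opening per cell cannot be told apart.

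The loci of Myb and l(3)mbt, the members with peaks called inside the gene in both knockout and no wild-type libraries, are shown first by the 250 bases upstream of each TSS, on the minus strand of dm6, 5′ to 3′. Capitals mark exact matches on either strand. They are the CHR element read by the DNA-binding subunit Mip120 (TTTGAA or TTCGAA), the promoter element DRE (TATCGATA) and CNGTTA, called the Myb core here. The study reports CNGTTA as a motif bound by the transcription factor Ovo. It also states, from motifs found in ChIP-seq data, that fly Myb does not recognize CCGTTA. The name therefore does not assign a match to Myb. The l(3)mbt stretch lies at 3R:27273274-27273523 and the Myb stretch at X:15857824-15858073, and neither overlaps an annotated gene.

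l(3)mbt: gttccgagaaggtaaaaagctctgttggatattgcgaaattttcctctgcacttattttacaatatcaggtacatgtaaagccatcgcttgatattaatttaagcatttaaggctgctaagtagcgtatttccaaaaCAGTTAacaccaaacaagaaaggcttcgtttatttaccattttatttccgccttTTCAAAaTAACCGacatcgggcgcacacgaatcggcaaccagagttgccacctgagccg

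Myb: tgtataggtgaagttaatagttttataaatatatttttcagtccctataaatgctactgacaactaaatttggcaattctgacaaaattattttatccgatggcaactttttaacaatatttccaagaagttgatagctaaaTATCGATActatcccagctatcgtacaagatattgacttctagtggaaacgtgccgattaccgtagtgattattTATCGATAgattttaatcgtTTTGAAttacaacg

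The Myb stretch holds a pair of DRE matches and a CHR match at -14 from the TSS, and the l(3)mbt stretch holds a CHR match beside a Myb core match and a further Myb core match upstream. Such matches describe the letters only.

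The gene l(3)mbt (FBgn0002441, 3R:27266326-27273273, minus strand, 6948 bp, 1 TSS) encodes a protein with MBT repeats, domains that bind methylated histone tails and compact chromatin in vitro. A peak lay over its TSS in 7 of the 9 libraries, with its summit 17 bp upstream. At the l(3)mbt TSS, fold enrichment was 4.09 in wild-type OSC 2, 3.06 and 4.33 in Δl(3)mbt OSCs 1 and 2, 5.79 and 4.27 in w1118 ovaries 1 and 2, and 4.10 and 3.35 in vas-GFP ovaries 1 and 2. No peak was called there in wild-type OSC 1 or in vas-GFP ovary 3, the library from 30 ovaries. Both Δl(3)mbt libraries held the peak, and the merged list of each of the 4 groups held it as well. As the peak lists carry no reads, they do not check the knockout.

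The strongest l(3)mbt promoter peak in 8 of the 9 libraries lay 416 bp upstream of the TSS, 16 bp from the start of the divergent gene CG5934, and this peak was present in all 9. Its fold enrichment was 3.18 and 4.26 in wild-type cells, 4.01 and 6.30 in knockout cells, 7.50 and 6.05 in w1118 and 4.75, 5.72 and 3.76 in vas-GFP ovaries. The OSC groups overlapped on this scale. On the summit pileup divided by the commonest background of each library, the same l(3)mbt peak was at 5.75 and 7.73 in wild-type cells, 12.03 and 21.4 in knockout cells, 18.7 and 13.98 in w1118 and 9.44, 11.3 and 7.77 in vas-GFP ovaries, and here the OSC groups did not overlap. In vas-GFP ovary 1 an intronic l(3)mbt peak was slightly stronger (4.89 against 4.75) and entered the fit below in its place. A promoter peak of one member can belong to its neighbor, and at l(3)mbt the strongest peak was shared with CG5934 in 8 libraries.

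Within the l(3)mbt gene, an intronic peak 775 bp downstream of the TSS was present in the same 7 libraries as the TSS peak, at 3.67 to 5.83. An intronic peak 2355 bp downstream was found in 4 ovary libraries, at 3.21 and 3.50 in w1118 and 3.31 and 4.52 in vas-GFP ovaries 2 and 3, and in no OSC library. Toward the upstream gene CG5938, 1960 bp before the l(3)mbt TSS, a peak was at 2.14 and 3.77 in wild-type cells, 4.36 and 5.47 in knockout cells and 8.25 to 10.4 in ovaries. The loci plot shows that the peaks of l(3)mbt lay in its 5′ part, and that the 3′ part of the gene body held none in any library.

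**Figure D1:**
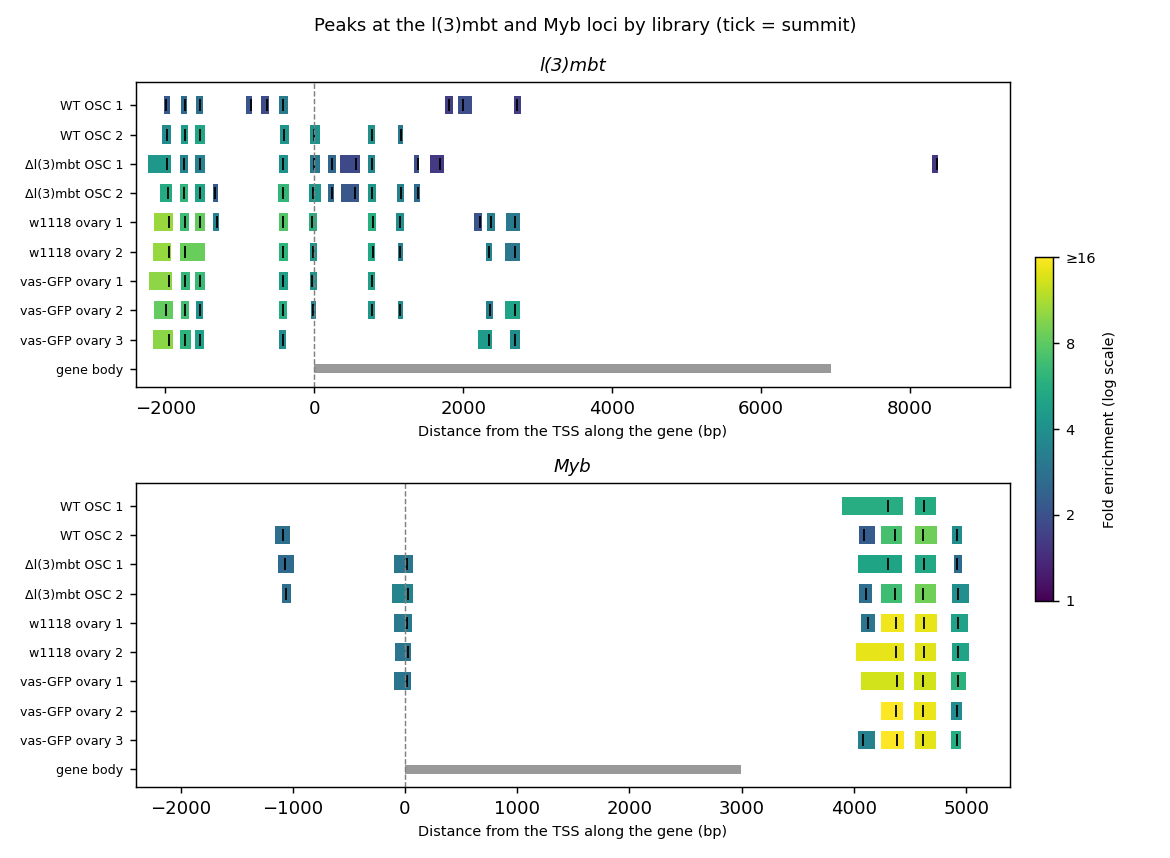
Peaks at the l(3)mbt (top) and Myb (bottom) loci in each of the 9 libraries, drawn against distance from the TSS along the gene in bp. Bars are peaks colored by fold enrichment on a log scale, ticks are summits, the gray bar is the gene body and the dashed line the TSS; the Myb TSS holds a peak in both Δl(3)mbt OSC libraries and in no wild-type OSC library.

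Inside l(3)mbt, 3 further sites were called in both knockout libraries and in no wild-type library. They lay 237 bp downstream of the TSS in the 5′ UTR (fold enrichment 2.47 and 2.53), 559 bp downstream in an intron (1.84 and 2.12) and 1397 bp downstream in the 5′ UTR (1.92 and 2.61). These enrichments of the l(3)mbt sites were all below that of the TSS peak in the same library. None of the 5 ovary libraries held the 3 sites, but the merged w1118 list held a peak at the site 1397 bp downstream (2.72, −log10 q 12.3). In the merged wild-type OSC list a weak peak (1.60), with its summit 367 bp downstream of the l(3)mbt TSS, overlapped the knockout peaks of the site at 559 bp.

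The local background under the peaks of l(3)mbt was raised in the knockout cells. Relative to the commonest background of its library, it was 1.88 and 1.73 at l(3)mbt in wild-type cells, 2.96 and 3.32 in knockout cells, 2.36 and 2.13 in w1118 and 1.86, 1.78 and 1.87 in vas-GFP ovaries. Both knockout values were above all other libraries. The ratio of the group means, knockout over wild type, was 1.74 at l(3)mbt (n = 2 against 2, for which an exact permutation test cannot give a p-value below 0.333), and 1.64 to 1.84 when each OSC library was left out in turn. At the other 9 members this ratio lay between 0.757 (Rbf) and 1.195 (E2f2), and at none of these 9 did both knockout libraries lie above both wild-type libraries.

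**Figure D2:**
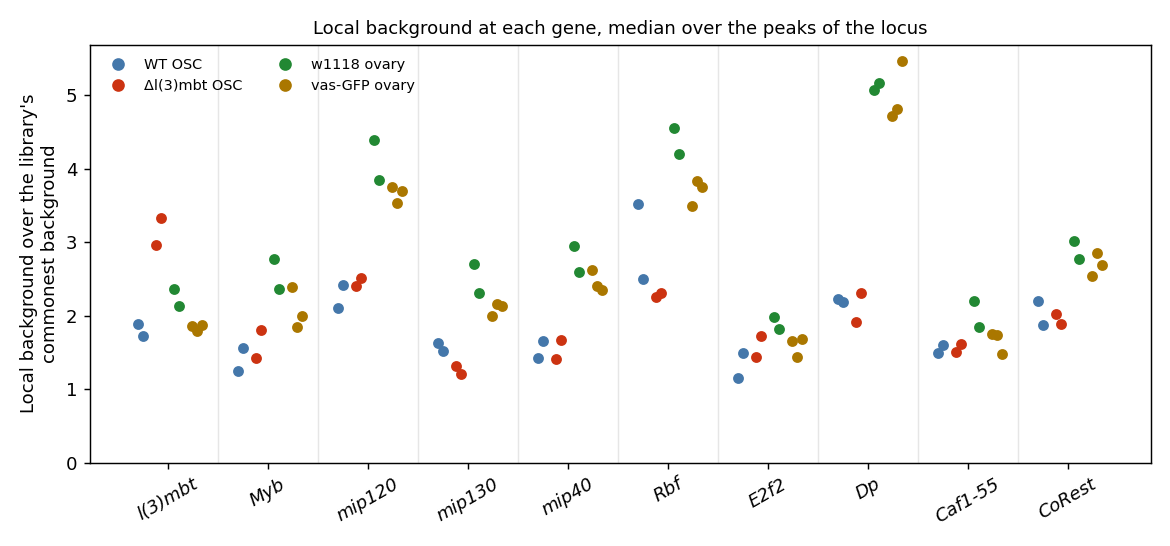
Local background at each gene, as the median over the peaks of its locus divided by the commonest background of the library (no unit), with 1 point for each of the 9 libraries. The 2 Δl(3)mbt OSC points of l(3)mbt, at 2.96 and 3.32, lie above all 7 other points of that gene.

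In 10-kb steps around the l(3)mbt TSS, the knockout background stood above that of wild-type cells over a stretch that reached beyond the gene on both sides. In the step from 50 to 40 kb below the TSS on the chromosome, the mean relative background was 1.57 in knockout and 1.17 in wild-type OSCs. In the step holding the TSS as its lower end the ratio was 1.78, and in the step from 10 to 20 kb above it the knockout values were 4.78 and 4.68 against 2.06 and 1.53, a ratio of 2.64. At 60 to 50 kb below and at 70 to 80 kb above, the knockout values were 1.00 to 1.05, near the commonest background of the library. Smaller differences appeared again farther out, at 1.31 and 1.12 in the knockout against 1.02 in wild-type OSC 1 from 80 to 90 kb above, and at 1.13 and 1.09 against 1.00 and 1.01 from 90 to 80 kb below. Of 4656 such steps of the genome with peaks in all 4 OSC libraries, the median ratio was 1.01, the 5th to 95th percentiles were 0.841 to 1.23, and 13 steps (0.279%) had a ratio at least as high as that of the l(3)mbt TSS. These 13 include the TSS step itself and further steps of the same stretch, at ratios of 1.94, 1.83, 2.64 and 2.64. The raised background here was known from earlier results of these data, so that its rank describes the stretch and is no test. The number of copies of this stretch was not measured, and its part in the l(3)mbt values was not tested.

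**Figure D3:**
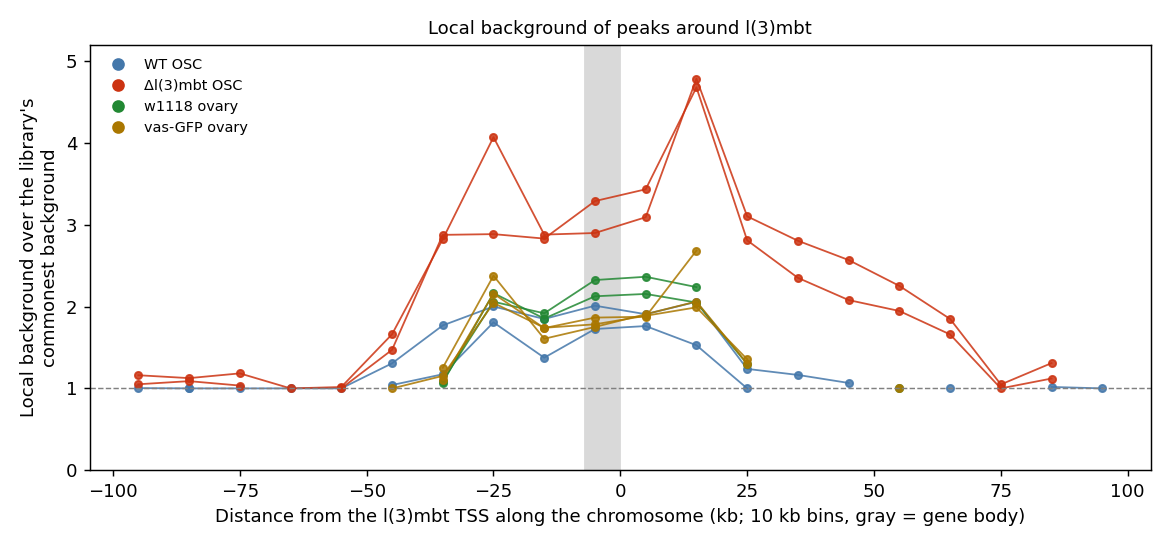
Local background of peaks in 10-kb steps, relative to the commonest background of each library (no unit), against distance in kb from the l(3)mbt TSS along the chromosome; each line is a library and the gray band the gene body. The 2 Δl(3)mbt lines rise to 4.78 and 4.68 between 10 and 20 kb and are at 1.05 and 1.00 at 70 to 80 kb and at 1.31 and 1.12 in the next step.

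Myb (FBgn0002914, X:15854832-15857823, minus strand, 2992 bp, 1 TSS) encodes the only Myb-family transcription factor of the fly, a DNA-binding subunit of dREAM. Among the members, only Myb had a TSS peak whose calling separated the OSC genotypes. A peak with its summit 22 bp into the 5′ UTR was called in Δl(3)mbt OSCs 1 and 2, with fold enrichments of 2.96 and 3.47, and in neither wild-type OSC library. The Myb TSS peak was also called in w1118 ovaries 1 and 2 (3.11 and 2.93) and in vas-GFP ovary 1 (2.92), and not in vas-GFP ovaries 2 and 3. Where it was called its enrichment was low and similar, while its −log10 q was 20.4 and 24.4 in knockout OSCs, 20.4 and 11.8 in w1118 and 12.2 in vas-GFP ovary 1. The pileup at the Myb summit was 109, 103, 100, 63 and 66 in these 5 libraries.

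The local background under the Myb TSS peak was 1.97 and 2.54 times the commonest background in Δl(3)mbt OSCs and 4.07 to 4.71 times in the 3 ovary libraries, above the median over the peaks of the Myb locus in each of these libraries (1.43, 1.80, 2.76, 2.36 and 2.38). Without a peak, wild-type OSCs give no value at this site. In the merged lists, which pool the replicates of a group, the Myb TSS lay in a peak in Δl(3)mbt OSCs (3.19), w1118 ovaries (3.08) and vas-GFP ovaries (2.52), and the nearest wild-type OSC peak was 1064 bp upstream. A peak missing from a list did not pass the q-value threshold and is not a measurement of closed chromatin. The transcript CG46440 is annotated from the same TSS, so that the peak cannot be assigned to Myb alone.

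A second upstream site of the Myb locus, 1067 bp before the TSS and 489 bp from the start of AlkB, was called in wild-type OSC 2 (2.71) and in Δl(3)mbt OSCs (2.58 and 2.74) and in no ovary library. Downstream of Myb, peaks at the starts of CG15914 and UBL3 were present in all 9 libraries. The peak near CG15914 was at 5.60 and 7.04 in wild-type cells, 5.03 and 6.80 in knockout cells and 13.2 to 16.2 in ovaries. The Myb gene body between its TSS and its 3′ end held no other peak in any library.

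Over all genes, 92 of 18277 (0.503%) gained a promoter peak in Δl(3)mbt OSCs by the same rule, a peak within 1 kb of a TSS in both knockout and neither wild-type library, and 92 (0.503%) lost one. Among the 10 members, Myb gained a peak and none lost one. The gain at Myb was kept under every alternative tried, but most of these could not have removed it. Leaving a library out relaxes the rule or leaves it unchanged. A promoter of 0.2 kb or a −log10 q of at least 5 adds no wild-type peak, and both knockout peaks at the Myb TSS pass these settings. Equal numbers of peaks from each library could have removed the gain. No wider promoter was tried, and wild-type OSC 2 had a peak with its summit 1086 bp upstream of the Myb TSS. The number of gained promoters over all genes went from 92 to 772 without wild-type OSC 1. A peak in all 5 ovary and no OSC library was found at 123 genes (0.673%) and the reverse at 432 genes (2.36%), and no member had either pattern.

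mip120 (FBgn0033846, 2R:13506430-13513112, plus strand, 2 TSSs) encodes the fly homolog of human LIN54, which contacts the CHR element. Its first TSS held a peak 16 bp upstream in all 9 libraries. Fold enrichment at the mip120 TSS was 2.58 and 3.92 in wild-type cells, 4.22 and 4.65 in knockout cells, 8.50 and 7.17 in w1118 and 7.33, 4.70 and 5.12 in vas-GFP ovaries. The second mip120 TSS also lay in a peak in all 9 libraries, at 2.46 to 3.19 in OSCs and 3.87 to 5.34 in ovaries. A stronger mip120 peak in each of the 9 libraries was intronic, 668 bp downstream of the TSS and 459 bp from the start of mEFTu1, and was at 3.92 and 5.54 in wild-type cells, 4.39 and 6.54 in knockout cells and 7.67 to 8.95 in ovaries.

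E2f2 (FBgn0024371, 2L:21154293-21156749, minus strand, 2 TSSs) encodes the repressive E2F of the fly, and Dp its dimer partner. The downstream E2f2 TSS held a peak 21 bp upstream in all 9 libraries, at 5.35 and 6.38 in wild-type cells, 5.01 and 6.39 in knockout cells, 15.3 and 15.5 in w1118 and 12.9, 11.6 and 12.3 in vas-GFP ovaries. The 2 OSC genotypes overlapped, and all ovary values were higher. A start of Mpp6 on the other strand lies 56 bp from this E2f2 TSS and shared the peak in all 9 libraries. A weaker E2f2 peak 82 bp before the upstream TSS, 14 bp from the start of Mpp6, was at 2.45 to 4.25 in OSCs and 4.76 to 10.6 in ovaries. A site 316 bp before the upstream E2f2 TSS was called in both wild-type OSCs (2.71 and 2.72), in neither knockout library, and in vas-GFP ovary 2 (3.15). The merged knockout list did hold a peak at this E2f2 site (2.09, against 2.68 in the merged wild-type list).

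An intergenic peak 2678 bp downstream of the E2f2 TSS was called in both Δl(3)mbt libraries and in no other. Its fold enrichment was 4.29 and 5.38, its −log10 q was 33.5 and 40.6 and its pileup was 109 and 104, and the merged knockout list held it at 4.84. In both knockout libraries this enrichment near E2f2 was the highest among the 5 sites of the 10 loci that were called in the knockout and not in wild-type cells. In Δl(3)mbt OSC 2 the peak spans 2L:21153414-21153625, 668 bp beyond the 3′ end of E2f2 and 4868 bp from del, the next gene on that side. The 212 bases of the peak are given on the strand of E2f2, with the 1 match to CNGTTA, at position 40 from the 5′ end, in capitals.

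E2f2 downstream peak: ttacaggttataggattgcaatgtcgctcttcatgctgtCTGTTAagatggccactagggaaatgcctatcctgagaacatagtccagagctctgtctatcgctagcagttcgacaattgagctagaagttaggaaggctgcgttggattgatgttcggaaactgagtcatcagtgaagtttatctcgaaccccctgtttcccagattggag

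The GC content of this E2f2 peak is 45.8%. None of its 183 stretches of 30 bases occurs elsewhere on the main chromosomes of the assembly. A window of this width around the summits of all Δl(3)mbt OSC 2 peaks holds the same core in 23.0% of 27066 peaks, so that the match is a common one.

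Dp (FBgn0011763, 2R:13222433-13228202, plus strand, 3 TSSs) was open at its first TSS in all 9 libraries, with the summit 47 bp upstream in most and the start of Fsn 26 bp away. Fold enrichment there was 7.12 and 5.66 in wild-type cells, 7.37 and 6.24 in knockout cells, 12.1 and 13.1 in w1118 and 10.8, 10.6 and 9.45 in vas-GFP ovaries. The third Dp TSS lay inside a peak in 3 libraries, and the nearest site, 121 bp upstream, was called in all 4 OSC libraries (2.27, 3.29, 1.68 and 2.33) and in 2 of the 5 ovary libraries. The local background of the Dp locus was 1.91 to 2.30 in OSCs and 4.71 to 5.47 in ovaries, the highest ovary values of the 10 members.

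mip130 (FBgn0023509, X:1908239-1920318, plus strand, 1 TSS) encodes the homolog of LIN-9, a scaffold subunit. It starts 31 bp from a start of Edem1 on the other strand and 681 bp from the start of Rbcn-3B. The strongest mip130 promoter peak was shared with both genes in all 9 libraries. The mip130 TSS held a peak in all 9 libraries, at 2.28 and 4.75 in wild-type cells, 3.71 and 4.55 in knockout cells, 5.32 and 4.01 in w1118 and 5.56, 3.03 and 4.32 in vas-GFP ovaries. These values of mip130 overlapped among all groups. An intronic peak of mip130, 603 bp downstream and 15 bp from a further Edem1 start, was stronger, at 3.71 and 7.30 in wild-type cells, 5.76 and 7.33 in knockout cells and 10.1 to 14.2 in ovaries.

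mip40 (FBgn0034430, 2R:19291105-19292196, minus strand, 1092 bp, 1 TSS) encodes the homolog of human LIN37, and Tab2, an adaptor of immune signaling, starts 333 bp away on the other strand. At the mip40 TSS the fold enrichment was 3.97 and 6.21 in wild-type cells, 4.76 and 7.52 in knockout cells, 6.92 and 5.15 in w1118 and 6.15 and 3.76 in vas-GFP ovaries 1 and 3. In vas-GFP ovary 2 no peak lay over the TSS. The peak 1092 bp upstream of mip40, which lies inside Tab2, was at 5.16 and 3.32 in wild-type cells, 4.54 and 3.87 in knockout cells, 14.3 and 17.2 in w1118 and 16.5, 18.2 and 17.5 in vas-GFP ovaries. A further mip40 site in the coding exon, 414 bp downstream of the TSS, was called in all 4 OSC libraries (3.97 in a wide peak, then 2.27, 2.46 and 2.30) and in no ovary library.

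Rbf (FBgn0015799, X:797090-801479, minus strand, 1 TSS) encodes the retinoblastoma-family pocket protein that binds E2f2 and Dp. Its TSS lay inside a peak in all 9 libraries, with the summit 62 to 64 bp upstream. Fold enrichment at Rbf was 4.16 and 5.95 in wild-type cells, 5.27 and 5.87 in knockout cells, 9.62 and 10.0 in w1118 and 8.74, 9.19 and 5.32 in vas-GFP ovaries. Vas-GFP ovary 3 fell within the range of the OSCs, and the other ovary libraries were above it. Beyond the 3′ end of Rbf, 4873 bp from its TSS and 3459 bp from the nearest start of any gene, a peak was at 5.27 to 6.002 in OSCs and 12.3 to 14.6 in ovaries.

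Caf1-55 (FBgn0263979, 3R:15225576-15227564, plus strand, 1 TSS) encodes a histone-binding WD40 protein that dREAM shares with several other chromatin complexes, including the CAF-1 assembly factor. A peak at its TSS was at 6.18 and 6.74 in wild-type cells, 7.48 and 7.75 in knockout cells, 14.8 and 13.7 in w1118 and 13.1, 13.3 and 8.43 in vas-GFP ovaries. The gene CG31344 starts 247 bp away on the other strand and shared this peak in all 9 libraries. In raw fold enrichment the knockout values of Caf1-55 lay above the wild-type ones, and the normalized log2 difference described below was 0.11 (SE 0.19, 95% interval -0.32 to 0.53) and was not called.

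CoRest (FBgn0261573, X:19521929-19530896, plus strand, 4 TSSs) encodes the corepressor of the LINT complex. The peak nearest its second TSS, 26 bp downstream, was at 5.68 and 9.48 in wild-type cells, 7.64 and 9.11 in knockout cells, 14.01 and 13.97 in w1118 and 15.5, 15.5 and 14.8 in vas-GFP ovaries. A peak 86 bp before the first CoRest TSS, 33 bp from the start of Idh3a, was at 5.48 to 8.42 in OSCs and 11.2 to 14.3 in ovaries. The internal CoRest TSS at X:19528362 lay in no peak of any library, while the second and the third start lay inside a peak in all 9.

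**Figure D4:**
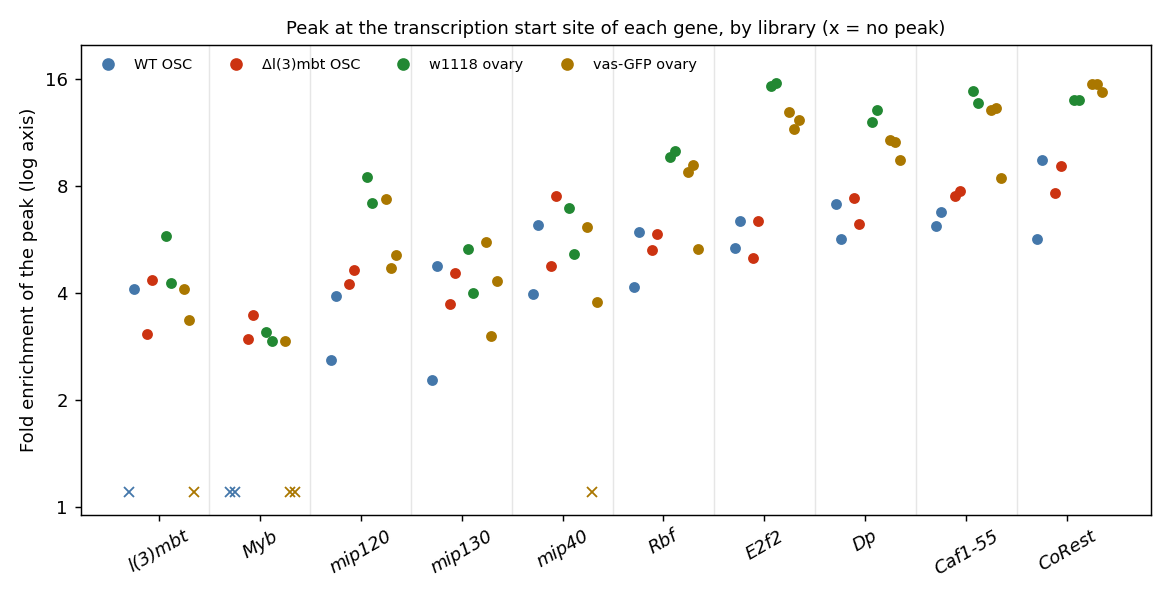
Fold enrichment (log axis, no unit) of the peak at the TSS of each member in each of the 9 libraries; a cross marks a library without a peak there. Crosses appear at l(3)mbt (2 libraries), Myb (4) and mip40 (1), and the other 7 members have a peak in all 9 libraries.

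In all, 10 of the 17 annotated TSSs of the members lay inside a peak in all 9 libraries, and 7 of the 10 members had such a TSS. The exceptions were l(3)mbt, with 7 libraries, Myb, with 5, and mip40, with 8. The 10 loci held 142 sites, of which 41 were called in all 9 libraries and 44 in a single library. A site counts as called where any peak covers it, so that a wide peak can count at more than 1 site. A library held 47 (vas-GFP ovary 3) to 78 (wild-type OSC 1) peaks over the 10 loci, the libraries with the shortest and the longest peak list, and 16 to 39 of these overlapped no promoter interval of the member. Of all 108597 sites of the genome, 2.19% were called in both knockout and neither wild-type OSC library, and of the 142 member sites 5 were: the 3 inside l(3)mbt, the Myb TSS and the site downstream of E2f2. The reverse held for 1.03% of all sites and for 1 member site, that upstream of E2f2. Sites in all 5 ovary and no OSC library made up 2.69% of all sites and none of the members', and sites in all 4 OSC and no ovary library made up 4.53% and 1 member site, that in mip40.

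To compare the groups with the library differences removed, the log2 fold enrichment of the strongest promoter peak was quantile-normalized over the libraries and fitted with limma for the 7248 genes with a promoter peak in all 9 libraries. This included 9 of the 10 members, since Myb has no peak in 4 libraries. The quantile step matters, because without it the median of all genes was higher by 0.88 on the log2 scale in ovaries than in wild-type OSCs, by 0.14 in Δl(3)mbt OSCs than in wild-type OSCs and by 0.29 in w1118 than in vas-GFP ovaries. The differences below are relative to the whole set of promoters.

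Between Δl(3)mbt and wild-type OSCs none of the 9 members passed an adjusted p of 0.05 (limma, Benjamini-Hochberg over 7248 genes), and none had an unadjusted p below 0.05. Over all genes 1 was called (0.0138%), MP1, a protease of melanization, named here after its value was seen (log2 difference 1.43, adjusted p = 0.0425, limma), and 326 had an unadjusted p below 0.05. The member differences ran from -0.25 for E2f2 to 0.28 for l(3)mbt, with a median of 0.01 against -0.01 for all genes. For l(3)mbt the difference was 0.28 (SE 0.19, 95% interval -0.14 to 0.69, adjusted p = 0.997, limma). The intervals of mip120, Rbf and CoRest reached from -0.39 to 0.37, -0.41 to 0.43 and -0.53 to 0.29. Changes of that size in either direction remain within the error of this fit, which has no replicate block. Same-numbered wild-type and knockout libraries deviated together (r = 0.54), as described at the end.

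The l(3)mbt result depended on the denominator. With the summit pileup over the commonest background of the library in place of the local background, the knockout minus wild-type difference of l(3)mbt was 1.36 on the log2 scale (SE 0.22, 95% interval 0.89 to 1.84, adjusted p = 0.0259, limma over 6617 genes). On that scale 35 genes (0.529%) were called, and l(3)mbt was the only member among them, with both knockout libraries above both wild-type ones. The other 8 members tested on it differed by -0.37 (mip130) to 0.15 (Caf1-55) and were not called. The local background at l(3)mbt moved with this result, as given above.

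Between ovaries and wild-type OSCs, in a contrast that shares the wild-type libraries with the previous one, mip40 was called. Its strongest promoter peak was higher in ovaries by 0.61 (SE 0.16, 95% interval 0.25 to 0.96, a fold of 1.52, adjusted p = 0.0265, limma). Of all genes 1172 (16.2%) were called, 541 (7.46%) higher and 631 (8.71%) lower in ovaries, so that 1 of 9 members is no larger a share than the background. The peak behind the mip40 value in ovaries is that inside Tab2, 1092 bp upstream, and when at least 50% of a peak had to lie inside the promoter interval the difference was -0.04 (adjusted p = 0.913, limma). The mip40 call was also lost when wild-type OSC 1 (adjusted p = 0.0948, limma), wild-type OSC 2 (0.0554), w1118 ovary 2 (0.105) or vas-GFP ovary 2 (0.0573) was left out.

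E2f2 was higher in ovaries by 0.31 (SE 0.14) with an unadjusted p of 0.0456 and an adjusted p of 0.146 (limma), and was not called. The other 7 members lay between -0.15 (l(3)mbt, also CoRest) and 0.29 (mip130). The mip130 value depended on the promoter width and on single libraries. It was -0.29 with 0.2 kb, -0.25 with 0.5 kb and -0.09 without wild-type OSC 1, none of them called, and 0.67 without wild-type OSC 2, where it was called (adjusted p = 0.0260, limma). Raw values of the strongest promoter peak were higher in all 5 ovary than in all 4 OSC libraries at every member tested except l(3)mbt and Rbf, where the ranges overlapped. For Dp, Caf1-55 and CoRest the normalized differences were -0.0035, 0.07 and -0.15. On the pileup scale Dp was higher in ovaries by 0.61 (adjusted p = 0.0218, limma), beside its high ovary background.

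Between w1118 and vas-GFP ovaries none of the 9 members and none of the 7248 genes (0%) was called by limma, while 750 genes and no member had an unadjusted p below 0.05. The member differences, w1118 minus vas-GFP, ran from -0.36 (mip40) and -0.34 (CoRest) to 0.15 (l(3)mbt).

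**Figure D5:**
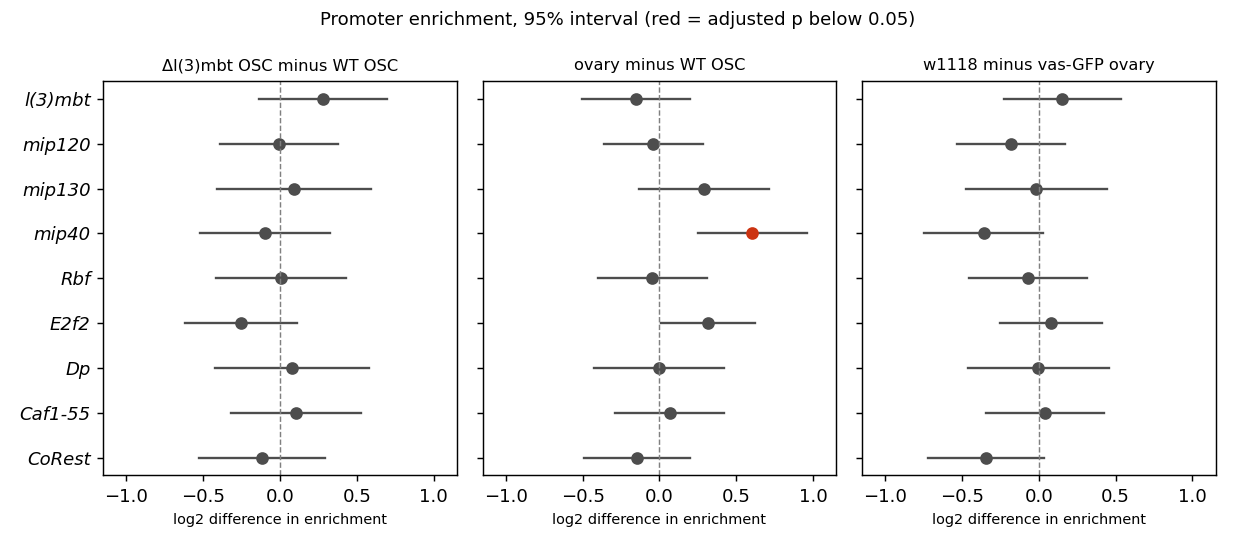
Differences in normalized log2 promoter enrichment (x axis, log2) for the 9 members tested, with 95% intervals from limma, in the contrasts Δl(3)mbt minus wild-type OSC, ovary minus wild-type OSC and w1118 minus vas-GFP ovary. Red marks an adjusted p below 0.05, which holds for mip40 in the ovary contrast, at 0.61.

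Genes whose products work with the members were described in the same way. Of 12 partner genes (E2f1, Rbf2, lin-52, HDAC1, Lint-1, Lint-O, Su(var)3-3, Caf1-105, Caf1-180, Mi-2, Scm and Sfmbt), 10 were tested, none was called between the OSC genotypes, and the median difference there was -0.08 against -0.01 for all genes. Between ovaries and wild-type OSCs 3 of the 10 were called, 1 higher and 2 lower, beside 16.2% of all genes. Lint-1, a subunit of LINT, was higher by 0.81 (adjusted p = 0.00600, limma). E2f1, the activating E2F, had a lower value, by a difference of -1.01 (adjusted p = 0.00256, limma), and Caf1-180, the large subunit of CAF-1, differed by -0.73 (adjusted p = 0.0122, limma). These differences are normalized. In raw values E2f1 was at 9.92 and 7.90 in wild-type OSCs and 7.15 to 8.48 in ovaries. Raw Caf1-180 values were 6.79 and 8.13 in wild-type OSCs and 4.89 to 11.7 in ovaries. Of 16 E2F and Myb target genes of the cell cycle 15 were tested, and none was called between the OSC genotypes, where their median difference was 0.09. In the ovary contrast CycB, which encodes the mitotic cyclin B and is a target of Myb, had a lower value, by a difference of -0.66 (adjusted p = 0.00975, limma), as 1 of 15 targets called against 8.71% of all genes called lower, and the median of the targets was -0.07. In raw values CycB was at 6.64 and 8.18 in wild-type OSCs and 7.27 to 10.1 in ovaries. All 16 targets held a promoter peak in every library except vas-GFP ovary 3, with 15. Of 6 genes listed for the testis complex tMAC (aly, tomb, comr, topi, achi and vis), 5 held a promoter peak in wild-type OSC 1. The other libraries held such a peak at 1 to 3 of these genes. Only achi could be tested, and it was not called in any contrast.

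Markers of cell types moved in the same ovary contrast. Only markers with a promoter peak in all 9 libraries could be tested. Of these 8 markers 4 were called, all with lower normalized values in ovaries, beside 8.71% of all genes. These were the germline genes vas, an RNA helicase (-0.89, adjusted p = 0.00212, limma), and zpg, a gap junction protein (-0.65, adjusted p = 0.0156, limma), the somatic transcription factor gene zfh1 (-0.76, adjusted p = 0.0104, limma) and the muscle actin gene Act57B (-1.18, adjusted p = 0.00812, limma). AGO3, a Piwi-family gene of the germline, had a promoter peak in all 5 ovary and no OSC libraries, and the follicle cell gene cas had one in all 4 OSC and no ovary libraries. In raw values zpg ranged from 7.92 to 9.57 across OSCs and from 8.34 to 12.2 across ovaries. The raw range of vas went from 5.69 to 7.10 across OSCs and from 4.39 to 6.26 across ovaries. Raw values differ between OSCs and ovaries across the genome, so these ranges alone do not rank the groups. The part of the cell types in the values of the members and partners was not tested.

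The promoter windows of the 17 member TSSs, 250 bases before to 50 after each, were searched on both strands for the E2F site (TTTCCCGC, TTTGGCGC, TTTGGCGG or TTTCGCGC), the CHR element, the Myb core and the DRE. The E2F site was in none of the 17 windows and in 6.21% of all 24111. The CHR element was in 9 windows, of 7 members, and in 45.8% of all. The Myb core was in 7 windows, of 6 members, and in 36.9% of all. The DRE was in the window of Myb, with matches at -108 and -34 from the TSS, and in 6.78% of all. In addition to the upstream matches printed above, the Myb window holds a Myb core at 12 from the TSS, inside the knockout peak.

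The promoters whose normalized enrichment over the 9 libraries was most like that of l(3)mbt were lncRNA:CR44749 (Pearson r = 0.955), Cul2 (0.952) and Abl (0.949). These values describe 9 libraries that share groups, the 3 genes were the highest of all those tested, and none shares a peak with l(3)mbt.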

How the data were processed

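Reads were trimmed (cutadapt 1.18), mapped to dm6 (BWA), marked for duplicates (Picard 2.9.0) and filtered (SAMtools 1.9) by the authors, who called peaks per library and on merged replicates (MACS2 2.1.1.20160309, q-value threshold 0.05, reads shifted around the insertion). The deposited lists give the fold enrichment, a ratio, and the −log10 of p- and q-values. These are not scaled between libraries. The deposited display score was not used. The deposited DiffBind table holds the authors' own comparison of the OSC genotypes, as log2 fold changes and p-values, and was not used. Read totals were not used here.

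Summit pileup and local background were computed back from fold enrichment and p-value, within 0.001 of the −log10 p for 98.7% to 100.0% of peaks in a library. Peaks were placed on Ensembl release 115 genes of the same assembly (24111 TSSs). A promoter was 1 kb either side of any TSS, overlapped by at least 1 bp. Sites were summits joined within 40 bp. Local background steps of 10 kb needed at least 2 peaks. Upstream sequences were read from the RefSeq dm6 genome. limma 3.58.1 (R 4.3.3) was fitted over 9 libraries in 4 groups, with Benjamini-Hochberg adjustment and a threshold of 0.05, after tests on simulated data. Python 3.11.15, NumPy 2.4.6, pandas 2.3.3, SciPy 1.17.1 and Matplotlib 3.10.9 were used. Alternatives were other normalizations, promoter widths, peak thresholds, overlaps, the pileup scale, a replicate block and leaving out libraries. All 10 members were named. Partner, tMAC and target genes were named where called by limma or by presence, and so were the cell type markers. The germline markers not tested by limma were named as well, and nos was not matched in the annotation. Members, lists and tests were chosen with earlier results of these data known.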

Additional observations from a re-analysis of the deposited data

How the results depend on the processing

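Depth was unequal between libraries, the lists hold only peaks past a threshold, and 2 against 2 libraries leave wide intervals. For the knockout against wild-type OSCs, 1 gene was called over all promoters, against 3 with peaks of a −log10 q of at least 5, 0 with the 4 OSC libraries only, 6 with 50% of the peak inside, 0 with median-centering and 0 without normalization (with 212 and 171 unadjusted p-values below 0.05), 3 and 4 with 0.2 kb and 0.5 kb, 35 with the summit pileup, and 0 to 10 with a library left out (10 without wild-type OSC 1, 6 without wild-type OSC 2). With a replicate block 79 genes and no member were called. Same-numbered wild-type and knockout libraries deviated together (r = 0.54), but the labels do not say that a number marks a pair, and the peak names number the second wild-type and knockout libraries 3 and 4. Of the members, 0 were called in all of these except on the pileup, where 1 was (l(3)mbt).

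For ovary against wild-type OSCs, 1172 genes became 5695 without normalization, 759 with 0.2 kb and 625 to 1681 with a library left out (625 without w1118 ovary 2, 631 without w1118 ovary 1, 1681 without wild-type OSC 2, 780 without wild-type OSC 1). Members called were 9 without normalization, 2 on the pileup, 0 with 50% inside, 0.2 kb or 0.5 kb (where mip40 had no peak in every library) and 0 to 1 with a library left out. Without normalization the sign turned at l(3)mbt (0.62), mip120 (0.83), Rbf (0.83), Dp (0.84) and CoRest (0.86), mip40 turned to -0.043 with 50% inside, Dp turned to 0.61 on the pileup, mip130 (0.29) turned to -0.29 with 0.2 kb, -0.25 with 0.5 kb and -0.09 without wild-type OSC 1, and of values under 0.2 in size mip120 turned to 0.18 with 0.2 kb and Caf1-55 to -0.05 on the pileup. The member called without wild-type OSC 2 was mip130 (0.67). Without normalization each library's own level enters these values. For w1118 against vas-GFP ovaries, 0 became 2 with 50% inside, 3 with median-centering, 21 on the pileup and 0 to 3 with a library left out (3 without wild-type OSC 1).

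Gained promoters (92) were 155 with 0.2 kb, 164 with equal peak numbers and 92 to 772 with a library left out; lost promoters (92) were 46 with 0.2 kb and 92 to 2854 (2854 without wild-type OSC 2). Ovary-only promoters (123) were 204 with a −log10 q of at least 5, 360 with equal peak numbers and 125 to 290 (290 without wild-type OSC 1), and OSC-only promoters (432) were 278 with 0.2 kb and 444 to 781 (781 without wild-type OSC 2). Peaks away from promoters, summed over libraries and members, were 203 and became 52 in the gene bodies alone. The ratio of backgrounds at l(3)mbt was 1.79 for the promoter peak alone and 1.69 within 10 kb. Where leaving a library out left 1 in a group, it was assumed to vary like the others. The cause of these shifts was not tested.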
